A study of Mus musculus with 10 samples.

Results

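Inhibitory receptors of myeloid cells were followed in the mouse hippocampus after subarachnoid hemorrhage (SAH), a bleed into the space around the brain. The set held 10 of the 24391 gene names that were counted: the sialic acid receptors Cd22, Cd33 and Siglece, the lipid receptors Cd300a and Cd300lf, the paired receptor Pilra, the collagen receptor Lair1, the Cd200 receptor Cd200r1, the Cd47 receptor Sirpa, and the phosphatase Ptpn6. They were taken by name, as receptors that carry or are related to receptors with an inhibitory tyrosine motif together with the phosphatase that acts below them, and they were chosen by a reading of SAH results from these same libraries. Their differences between SAH and the other mice are therefore given as a description, with no p-value. Where a member is said to have passed the threshold of the fit across all genes, this too only describes the values that the choice rested on.

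RNA from the whole hippocampus of both sides was sequenced in 10 male C56BL/6J mice aged 10 to 14 weeks, 1 library per mouse. In 4 SAH mice (animals 1 to 4) an artery of the Circle of Willis had been perforated on 1 side with an intraluminal filament, and only mice whose cerebral blood flow fell sharply at perforation were kept. In 3 Sham mice (animals 5 to 7) the operation stopped short of perforation, and 3 Naive mice (animals 8 to 10) had no surgery. The labels give no drug treatment, surgery was done under isoflurane anaesthesia, and the tissue was taken 4 days after surgery. Sham and Naive mice together, 6 animals, are called control.

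Inhibitory receptors hold back myeloid cells such as microglia and macrophages. Most carry in their cytoplasmic tail an ITIM, an immunoreceptor tyrosine-based inhibitory motif, which is phosphorylated by Src family kinases and then binds phosphatases such as SHP-1, the product of Ptpn6. The phosphatases remove phosphate from the signalling chain that starts at activating receptors and their adaptors, of which Tyrobp is the main one in microglia. Several of the ligands belong to the healthy tissue (Cd47 and Cd200 on neurons, sialic acids on cell surfaces), and engagement of these receptors is known as a check on phagocytosis and inflammatory activation in the brain.

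In the coordinates of the mm9 build used by the deposited files, 4 of the 10 genes lay on chromosome 7: Cd22 at chr7:31650423-31665361, Cd33 at chr7:50782826-50788541, Siglece at chr7:50906440-50915531 and Lair1 at chr7:3958675-4014806, all on the minus strand. Cd33 and Siglece were neighbours in the Siglec cluster, 117899 bases apart. Cd300a (chr11:114751355-114765965, plus strand) and Cd300lf (chr11:114977528-114995306, minus strand) were 211563 bases apart. Pilra was at chr5:138263180-138277506 and Ptpn6 at chr6:124670725-124688727, both on the minus strand, and Cd200r1 (chr16:44765849-44795090) and Sirpa (chr2:129418575-129457964) were on the plus strand. Counts were summed over the exons of each gene, untranslated parts included. Pilra shared exonic sequence with Zcwpw1, which is read in the other direction, and the strand-aware counting of the authors kept both apart.

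RefSeq promoter windows (GRCm38.p6, 250 bases before the start site to 50 bases after it, in the direction of the gene) were at hand for 8 of the 10 members, all except Cd200r1 and Sirpa. The 2 members that passed the threshold in SAH against control, and the 3 members whose window held a motif searched for, are shown. Capitals mark the motif: AGGAAGT or its longer form GAGGAAGT, letters like those bound by PU.1, a transcription factor of myeloid cells, and an interferon-type element read as GAAA, any 2 bases, GAAA. Each window was found at full length and identity in mm9, Cd22 at chr7:31663998-31664297, Cd33 at chr7:50788492-50788791, Cd300lf at chr11:114995257-114995556, Pilra at chr5:138277457-138277756 and Ptpn6 at chr6:124688678-124688977, all on the minus strand.
Cd22: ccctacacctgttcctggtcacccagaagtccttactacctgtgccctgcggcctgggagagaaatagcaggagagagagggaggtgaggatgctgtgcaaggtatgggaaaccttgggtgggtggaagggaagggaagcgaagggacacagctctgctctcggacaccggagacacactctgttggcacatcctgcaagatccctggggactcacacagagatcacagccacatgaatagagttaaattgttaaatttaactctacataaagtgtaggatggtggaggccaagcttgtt
Cd33: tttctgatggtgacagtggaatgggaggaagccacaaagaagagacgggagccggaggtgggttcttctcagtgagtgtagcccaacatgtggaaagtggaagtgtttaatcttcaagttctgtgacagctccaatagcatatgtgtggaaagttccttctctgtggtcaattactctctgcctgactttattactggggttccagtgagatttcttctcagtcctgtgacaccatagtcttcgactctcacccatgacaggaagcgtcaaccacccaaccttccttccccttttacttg
Cd300lf: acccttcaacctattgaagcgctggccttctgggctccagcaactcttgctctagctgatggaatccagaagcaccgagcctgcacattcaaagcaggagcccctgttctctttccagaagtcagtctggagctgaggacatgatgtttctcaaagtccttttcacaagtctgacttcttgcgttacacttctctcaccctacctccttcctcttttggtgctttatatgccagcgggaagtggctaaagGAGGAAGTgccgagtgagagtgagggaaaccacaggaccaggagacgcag
Pilra: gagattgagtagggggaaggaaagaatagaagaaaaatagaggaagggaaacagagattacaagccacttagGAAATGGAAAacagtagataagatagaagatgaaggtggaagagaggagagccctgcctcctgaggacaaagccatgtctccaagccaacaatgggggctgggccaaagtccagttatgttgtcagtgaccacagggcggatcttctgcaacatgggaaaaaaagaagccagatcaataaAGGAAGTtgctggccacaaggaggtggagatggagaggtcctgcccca
Ptpn6: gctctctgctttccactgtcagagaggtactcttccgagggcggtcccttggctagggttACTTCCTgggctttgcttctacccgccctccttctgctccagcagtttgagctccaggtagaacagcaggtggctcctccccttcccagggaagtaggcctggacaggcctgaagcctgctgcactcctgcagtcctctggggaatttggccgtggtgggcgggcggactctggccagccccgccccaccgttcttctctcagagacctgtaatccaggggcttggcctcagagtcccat

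The shorter motif stood in 3 of the 8 windows and in 9.35% of all 32851 promoters of the table, counting both strands. It lay next to the start site in Cd300lf, where it was part of the longer motif at positions 0 to 7, and in Pilra, at 2 to 8. In Ptpn6 it lay on the other strand at -190 to -184. The longer motif was found in 1 window, against 3.2% of all promoters, and the interferon-type element in 1, at -178 to -169 of Pilra, against 3.44%. Neither Cd22 nor Cd33 held any of these letters in the window shown. For Cd22 the RefSeq start site lay 1314 bases inside the gene as the files define it, so the window belongs to an inner start. A match is a description of the letters and not a binding site.

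Total counts ran from 19743388 to 27254655 per mouse, with a median of 24455512. No pair of mice within a group differed by sampling noise alone (chi-square per degree of freedom 4.09 to 19.3), and SAH mouse 3 was the mouse farthest from its group (15.3 to 19.3). Markers of the choroid plexus, the epithelium that secretes cerebrospinal fluid and borders the hippocampus, differed most among libraries: their summed level was 1218 CPM (counts per 1000000 counts of a library, after scaling) in SAH mouse 3, 858 in SAH mouse 4 and 822 in Sham mouse 7, against 43.9 to 214 CPM in the other 7 mice. Hippocampal neuron markers summed to 3448 to 3593 CPM in SAH and 3361 to 3645 CPM in control. In whole tissue, a change in the number of cells of a type and a change in RNA per cell cannot be told apart.

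Cd22 and Cd33 lay higher in every SAH mouse than in every control mouse. Lair1 did not pass the threshold, with SAH mouse 2 inside the control range. Siglece, Cd300a, Ptpn6 and Sirpa had intervals that included no difference. Cd300lf, Pilra and Cd200r1 had too few counts for the test. Of the 10 members, 7 passed the filter on low counts, and 2 of these 7 passed an adjusted p of 0.10 in SAH against control, both higher. Over all 14993 genes tested, 4.68% passed (3.13% higher and 1.54% lower). All 4 SAH mice lay above all 6 control mice for 2 members, and for 2.83% of all genes tested. Since the members were chosen on this contrast, nothing is read from these counts.

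**Figure D1:**
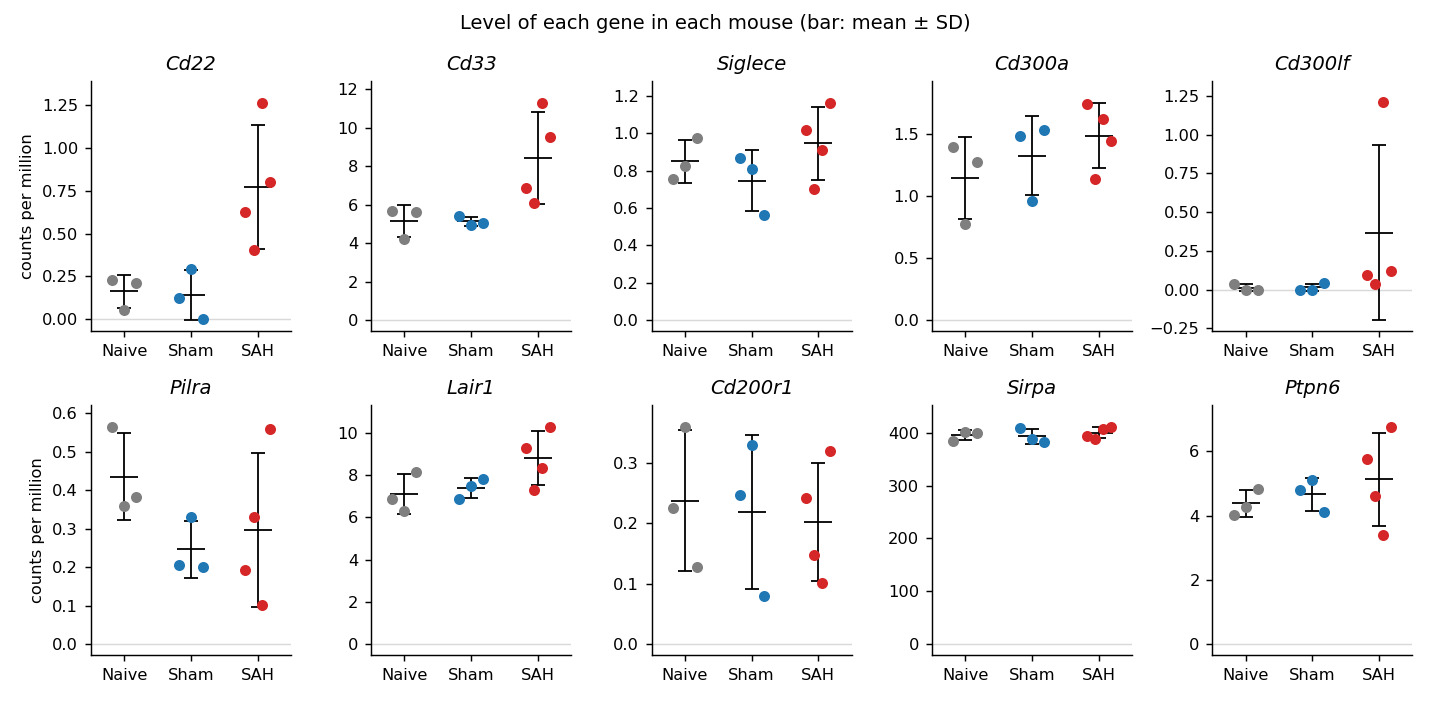
Level of each of the 10 genes in CPM (vertical axis) in the 3 Naive, 3 Sham and 4 SAH mice (horizontal axis). Each point is a mouse, and the bars are the mean and SD of a group. Cd22 and Cd33 show all SAH points above all control points, Cd300lf is raised in 1 SAH mouse (1.21 CPM), and the groups overlap for the other 7 genes.

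Cd22 encodes a Siglec, a sialic acid binding lectin with several ITIMs, best known as a brake on the B cell receptor and also carried by microglia, where it restrains phagocytosis. Its counts were 13, 11, 25 and 20 in SAH mice 1 to 4, 3, 8 and 0 in Sham mice 5 to 7, and 6, 1 and 5 in Naive mice 8 to 10. In CPM the SAH mice held 0.63, 0.40, 1.26 and 0.80, and the control mice between 0 and 0.29. The groups did not overlap, and SAH mouse 3 was the highest. The mean was 0.774 ± 0.364 CPM in SAH (SD, n = 4) and 0.151 ± 0.112 CPM in control (SD, n = 6), and the fitted log2 fold change was 2.23 with a standard error of 0.49 (95% interval 1.18 to 3.28), a 4.70-fold difference. These rest on 69 counts in 4 SAH mice and 23 in 6 control mice. Cd22 passed the low-count filter only through the SAH mice: the filter needed 0.409 CPM in 4 mice, which the 4 SAH mice reached and none of the 6 control mice did. A gene let in this way had to differ. Without the filter the value was 2.24 (95% interval 1.22 to 3.26).

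B cells, the best known carriers of Cd22, left few counts in these libraries. Each of the 5 B cell markers, among them Ms4a1, Cd79a, Cd79b and Pax5, had at most 8 counts in any mouse, and their sum was 0.320 to 0.435 CPM in SAH and 0.206 to 0.594 CPM in control, so that the groups overlapped. Ms4a1 was at 0 counts in all 4 SAH mice.

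Cd33 encodes a Siglec of myeloid cells whose human form is a risk gene for Alzheimer's disease, and whose mouse form differs from the human one in its cytoplasmic tail. The SAH mice held 142, 165, 223 and 238 counts. The Sham mice held 131, 135 and 125 counts and the Naive mice 151, 82 and 132. In CPM these were 6.87, 6.07, 11.3 and 9.51 in SAH and 4.22 to 5.68 in control. All SAH mice lay above all control mice, mouse 2 by the smallest step, and mice 3 and 4 stood well above mice 1 and 2. The log2 fold change was 0.70 with a standard error of 0.16 (95% interval 0.36 to 1.04), or 1.63-fold, from a mean of 5.15 ± 0.542 CPM in control (SD, n = 6) to 8.43 ± 2.40 CPM in SAH (SD, n = 4).

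SAH mice 3 and 4, which were highest for Cd22 and Cd33, were also high in choroid plexus markers. Sham mouse 7, the third library high in those markers, had 0 counts of Cd22 and 5.03 CPM of Cd33, inside the control range. SAH mice 1 and 2 lay above all control mice for both genes. Their choroid plexus sums were 101 and 214 CPM, against 43.9 to 67.0 CPM in Naive mice and 56.7 to 822 CPM in Sham mice. Without these 3 libraries the log2 fold change of Cd33 was 0.31 and that of Cd22, fitted with no filter, was 1.40, and neither passed the threshold. The fit without them had 2 SAH and 5 control mice. Among the other tested members it gave -0.018 for Sirpa, in place of 0.021, and -0.0011 for Siglece, in place of 0.24, while Cd300a (0.26), Lair1 (0.21) and Ptpn6 (0.16) stayed above 0. The part of choroid plexus tissue in these differences was not tested.

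Single mice bore on the calls as well. With each mouse left out in turn, the log2 fold change of Cd33 ran from 0.54 to 0.83, and without SAH mouse 4 it was 0.63 and did not pass. Cd22 had enough counts in 6 of these 10 fits, with values of 1.92 to 2.47. It fell below the filter without SAH mouse 4, Naive mouse 8, Sham mouse 6 or Sham mouse 7. With no filter its values ran from 1.92 to 2.54.

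Siglece encodes Siglec-E, the main inhibitory Siglec of mouse neutrophils and macrophages, which microglia also carry. Its counts were 21, 19, 18 and 29 in SAH, 21, 22 and 14 in Sham, and 20, 16 and 23 in Naive. The SAH mice spanned 0.699 to 1.16 CPM and the control mice 0.563 to 0.976 CPM, and the ranges overlapped. The log2 fold change was 0.24 with a standard error of 0.21 (95% interval -0.21 to 0.70). With each mouse left out in turn it ran from 0.12 to 0.37.

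Cd300a and Cd300lf encode neighbouring receptors that bind phosphatidylserine and related lipids of dying cells. Cd300a had 36, 31, 32 and 36 counts in SAH, 36, 26 and 38 in Sham, and 37, 15 and 30 in Naive. The groups overlapped (1.14 to 1.74 CPM in SAH, 0.771 to 1.53 CPM in control), and the log2 fold change was 0.24 with a standard error of 0.21 (95% interval -0.21 to 0.70).

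Cd300lf had at most 1 count in any control mouse, with 0, 0 and 1 counts in the Sham mice and 1, 0 and 0 in the Naive mice. The SAH mice had 2, 1, 24 and 3 counts, so that 24 of 30 counts came from mouse 3. At 1.21 CPM mouse 3 stood apart from the other SAH mice, at 0.037 to 0.120 CPM, and SAH mouse 2 lay below the highest control mouse. Fitted with no filter, the log2 fold change was 4.18 (95% interval 1.81 to 6.55), and Cd300lf passed the threshold there, as did 3.73% of 19538 genes. Without SAH mouse 3 it was 2.22 and did not pass, and it passed in 4 of the 10 fits that left out a mouse. Levels this close to 0 give no stable fold.

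Pilra encodes an inhibitory receptor for sialylated proteins that is paired with activating Pilrb receptors. Its counts were 4, 9, 2 and 14 in SAH, 5, 9 and 5 in Sham, and 15, 7 and 9 in Naive. The SAH mice spanned both the lowest and nearly the highest level of the 10 mice, 0.101 CPM in mouse 3 and 0.560 CPM in mouse 4. The log2 fold change with no filter was -0.15 with a standard error of 0.43 (95% interval -1.06 to 0.76). The partners Pilrb1 and Pilrb2 were at 0 counts in all Naive mice and at or below 0.25 CPM in all others.

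Lair1 encodes a receptor for collagens and for the complement component C1q, and its ITIMs bind SHP-1. It had 192, 198, 165 and 257 counts in SAH, 166, 203 and 194 in Sham, and 183, 122 and 192 in Naive. In CPM these were 9.28, 7.28, 8.34 and 10.3 in SAH and 6.27 to 8.15 in control. SAH mice 1, 3 and 4 lay above all control mice and SAH mouse 2 lay inside their range. The log2 fold change was 0.28 with a standard error of 0.11 (95% interval 0.048 to 0.51). It did not pass the threshold with all mice, and passed without SAH mouse 2, at 0.36.

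Cd200r1 encodes the receptor for neuronal Cd200 and signals through Dok adaptors in place of an ITIM. Its counts were 5, 4, 2 and 8 in SAH, 6, 9 and 2 in Sham, and 6, 7 and 3 in Naive. The groups overlapped throughout, with a log2 fold change of -0.15 with no filter (standard error 0.46, 95% interval -1.12 to 0.83). At this depth a change by as much as the interval allows was not detectable.

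Sirpa encodes SIRP-alpha, the receptor through which Cd47 restrains phagocytosis, and is also made by neurons. Its level was 395, 388, 408 and 411 CPM in SAH mice 1 to 4, 409, 389 and 382 CPM in Sham mice 5 to 7, and 385, 402 and 401 CPM in Naive mice 8 to 10. The groups overlapped, and the log2 fold change was 0.021 with a standard error of 0.034 (95% interval -0.052 to 0.093). Its interval was the narrowest of the members, on 7823 to 10592 counts per mouse. Sirpa made up 93.0% to 95.9% of the counts of all 10 members in a mouse.

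Ptpn6 encodes SHP-1, the phosphatase that most of these receptors recruit. It had 119, 125, 67 and 169 counts in SAH, 116, 139 and 102 in Sham, and 107, 83 and 114 in Naive. In CPM the SAH mice held 5.75, 4.60, 3.39 and 6.76 and the control mice 4.02 to 5.11, so that SAH mouse 4 was the highest and SAH mouse 3 the lowest of all 10 mice. The log2 fold change was 0.18 with a standard error of 0.16 (95% interval -0.16 to 0.53). Left out in turn, the mice moved it between 0.019 and 0.33.

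SAH mouse 3 thus had the highest Cd22, Cd33 and Cd300lf of all mice together with the lowest Ptpn6, and the lowest Pilra and Cd200r1 of the SAH mice. Its microglial markers P2ry12 (35.5 CPM) and Cx3cr1 (39.3 CPM) were the lowest of all 10 mice, against 41.4 to 51.7 and 50.8 to 58.5 CPM in the others. The sum of all 9 microglial markers in this mouse was 446 CPM, the lowest of the SAH mice but inside the control range of 419 to 465 CPM. Its sum of 6 markers shared by myeloid cells, 92.3 CPM, lay above the control range of 78.7 to 82.5 CPM. The choroid plexus marker Ttr, at 1110 CPM, was the highest in SAH mouse 3.

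The comparisons with each control group share the SAH mice, and each of those shares mice with the pooled comparison, so their values are only set side by side. Cd22 differed by a log2 fold change of 2.36 from Sham (95% interval 0.97 to 3.74) and 2.11 from Naive (0.74 to 3.48). Cd33 differed by 0.71 from Sham (0.28 to 1.14) and 0.69 from Naive (0.26 to 1.12). Lair1 differed by 0.25 from Sham (-0.034 to 0.54) and 0.30 from Naive (0.014 to 0.59). With all mice, each of the 7 tested members had a value above 0 against both groups, with Sirpa the smallest at 0.025 and 0.016. For 3 members the sign turned when 1 mouse was left out: Cd300a was at -0.034 against Sham without Sham mouse 6, Ptpn6 at -0.027 against Sham without SAH mouse 4, and Sirpa at -0.0027 against Naive without Naive mouse 8. Cd22 against Sham ran from 1.81 without Sham mouse 7 to 3.52 without Sham mouse 6, in the 9 of 10 fits where it had enough counts. No member passed the threshold of edgeR's test against Sham or against Naive, where 0.72% and 2.99% of 15134 genes did. At an unadjusted p under 0.05 the count was 2 members against Sham, beside 1467 of the 15134 genes, and 3 against Naive, beside 2246. DESeq2 called Cd22 and Cd33 against each, beside 302 genes in all against Sham and 744 against Naive. As the choice of members used these mice, nothing is read from these counts. With no filter Cd33 passed against Naive, as did 2.65% of all genes.

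Surgery without perforation, which the choice of members did not use, gave no detectable difference in any of the 7 members tested. Sham against Naive gave log2 fold changes between -0.25 (Cd22) and 0.18 (Cd300a), all with an adjusted p of 0.9998 in edgeR's quasi-likelihood test. None of the 7 had an unadjusted p under 0.05, and 1 of 15134 genes (0.00661%) passed the threshold. DESeq2 called 0 members as well. The intervals were -0.49 to 0.45 for Cd33, -0.26 to 0.36 for Lair1, -0.11 to 0.087 for Sirpa and -0.37 to 0.55 for Ptpn6. For Cd22, with -2.13 to 1.64, a severalfold difference could not have been seen.

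**Figure D2:**
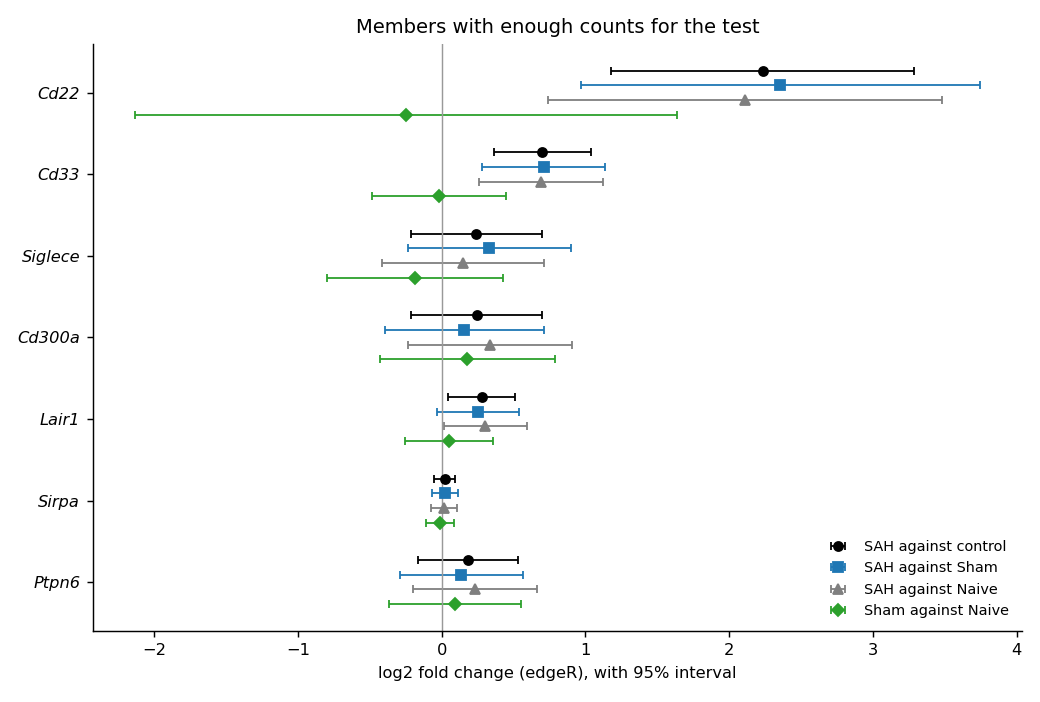
Log2 fold change from edgeR (horizontal axis) with its 95% interval for the 7 members with enough counts, in 4 comparisons marked by colour and symbol. The intervals of Cd22 and Cd33 lie above 0 in all 3 comparisons that use SAH mice, at 2.11 to 2.36 and 0.69 to 0.71, those of Sirpa stay within 0.115 of 0, and all 7 Sham against Naive intervals include 0.

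Levels of different genes were compared per kilobase of exon. In control mice Sirpa led with 92.5 ± 2.52 CPM per kilobase (SD, n = 6), 46.2-fold the next member. Cd33 (2.00 ± 0.211), Lair1 (1.99 ± 0.191) and Ptpn6 (1.86 ± 0.184 CPM per kilobase) followed at levels whose ranges overlapped, and all of their ranges lay above that of Siglece (0.432 ± 0.0743). Cd300a (0.266), Pilra (0.132), Cd200r1 (0.121), Cd22 (0.0342) and Cd300lf (0.00688 CPM per kilobase) came last, each overlapping its neighbour in this order. In SAH mice Cd33 was at 3.28 ± 0.932 and Lair1 at 2.42 ± 0.353 CPM per kilobase (SD, n = 4).

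The cells that carry these receptors were read from marker lists, chosen with results of these data known, so their counts are a description. Over all genes tested in SAH against control, 4.68% passed (3.13% higher). Microglial markers summed to 446 to 547 CPM in SAH and 419 to 465 CPM in control, and 2 of 9 passed the threshold, among them Csf1r (log2 fold change 0.29, edgeR adjusted p = 0.026). Their median log2 fold change was 0.084, beside -0.0024 over all genes tested and 0.24 over the 7 tested members. Of 6 markers shared by myeloid cells 1 passed, Cd68 (0.30, edgeR adjusted p = 0.0776), with a median of 0.21. Neither Csf1r nor Cd68 passed without the 3 libraries high in choroid plexus markers (0.18 and 0.15), or without SAH mouse 4. With each mouse left out in turn, Csf1r passed in 9 and Cd68 in 2 of 10 fits, Cd68 only without SAH mouse 1 or SAH mouse 2.

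Markers of border macrophages, the macrophages of meninges and vessels, separated the groups. Their sum was 18.9 to 24.2 CPM in SAH, 10.5 to 12.3 CPM in Sham and 6.84 to 7.87 CPM in Naive, with no overlap between the 3 groups. All 7 had higher values in SAH against control, and the median log2 fold change was 1.16. Of the 7, 5 passed (F13a1, Cd163, Mrc1, Ms4a7 and Pf4), beside 4.68% of all genes tested (3.13% higher). F13a1 had 1.49 (edgeR adjusted p = 0.00086) and Cd163 1.51 (adjusted p = 0.0056), and the same 5 genes passed without the 3 libraries high in choroid plexus markers. With each mouse left out in turn, F13a1, Cd163 and Mrc1 passed in 10 of 10 fits, Ms4a7 in 6 and Pf4 in 5. Ms4a7 was lost when Sham mouse 5, SAH mouse 4, or either of Naive mice 8 and 9 was omitted, and Pf4 without SAH mouse 1 or 2 or any Naive mouse. The part of border macrophages in the values of Cd22 and Cd33 was not tested.

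Monocyte markers summed to 3.05 to 4.50 CPM in SAH and 1.57 to 2.25 CPM in control. S100a4, the only one of 6 with enough counts, was higher (log2 fold change 0.78, edgeR adjusted p = 0.0652, and 0.60 with no call without the 3 libraries). With each mouse left out in turn it passed in 4 of 10 fits (0.51 to 0.90), and was lost without SAH mouse 3, any Naive mouse, Sham mouse 5 or Sham mouse 6. Ccr2 stood at 0.10 to 1.55 CPM in SAH and 0.051 to 0.22 CPM in control, lowest among SAH mice in mouse 3. With no filter 3 of the 6 monocyte markers passed, beside 3.73% of all genes. They were S100a4, Ccr2 (2.45, edgeR adjusted p = 0.0177) and Ly6c2, the last with at most 5 counts in any mouse. Neutrophil markers had at most 12 counts and T and NK cell markers at most 3 counts in any mouse, and both sums overlapped between SAH and control (neutrophils 0.405 to 1.21 and 0.0752 to 1.17 CPM, T and NK cells 0.110 to 0.202 and 0.0368 to 0.161 CPM). For choroid plexus in SAH against control, 0 of 6 markers passed in edgeR and 2 of 6 had an unadjusted p under 0.05, with a median of 1.19. Against Naive alone 2 of 6 passed (Kcnj13 and Ttr), beside 2.99% of all genes. The median there was 2.23, and 6 of 6 had an unadjusted p under 0.05. Against Sham alone 0 passed and 0 had such a p, with a median of 0.57. In Sham against Naive 0 passed and 3 of 6 had such a p, with a median of 1.62. For hippocampal neurons in SAH against control 0 of 6 passed and 0 of 6 had an unadjusted p under 0.05, with a median of -0.0051.

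**Figure D3:**
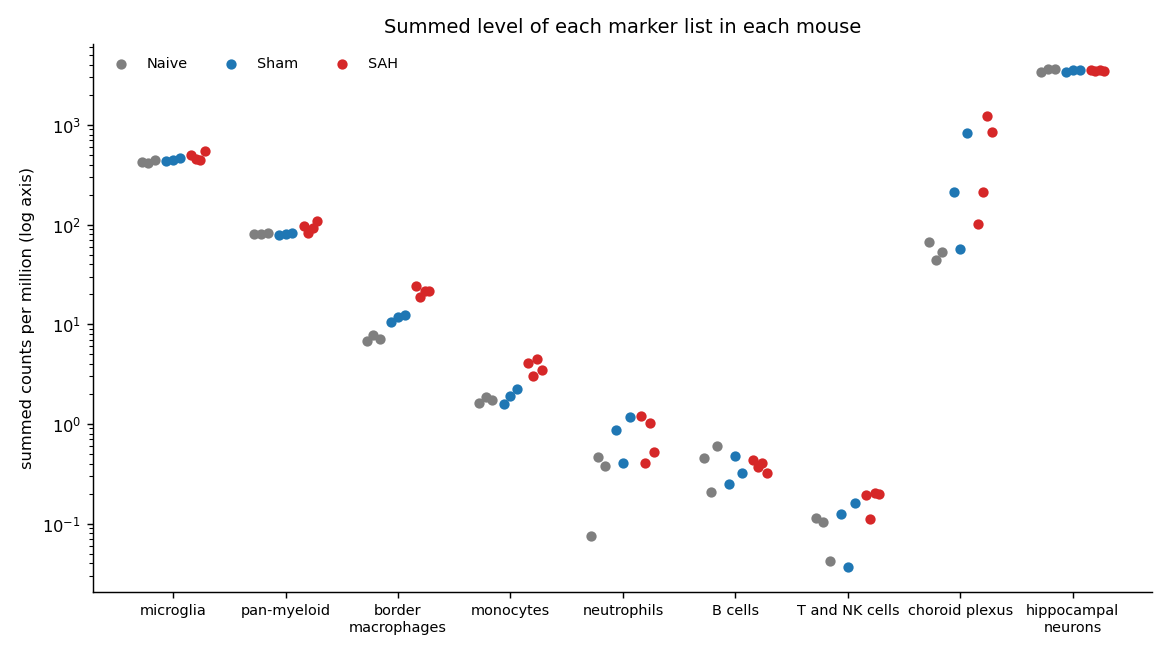
Summed CPM (vertical axis, log scale) of 9 marker lists in each of the 10 mice, coloured by group. Border macrophage and monocyte sums lie higher in all 4 SAH mice (18.9 to 24.2 and 3.05 to 4.50 CPM) than in all control mice, B cell sums overlap, and 2 SAH mice and 1 Sham mouse are high in choroid plexus markers.

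Other genes of the pathway were read from 6 lists of 76 genes, chosen, like the members, with results of these data known. In SAH against control 11 of the 50 that had enough counts passed, all higher, beside 4.68% of all genes tested (3.13% higher). Since the lists were chosen with results known, these counts and those of the single lists are a description. Without the 3 libraries high in choroid plexus markers 6 passed, all among the 11: Fcgr2b, Fcgr3, C1qa, Col1a1, Col1a2 and Col3a1. The same 6 passed in each of the 10 fits that left out a mouse.

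Among other receptors with an ITIM, Fcgr2b and Pecam1 were higher in SAH. Of 11 in the files 4 had enough counts and 2 of the 4 passed, with a median log2 fold change of 0.66. With no filter 6 of the 11 passed (Fcgr2b, Pecam1, Pirb, Cd72, Clec12a and Milr1), beside 3.73% of all genes, and the median was 1.17. That count was 2 to 6 with each mouse left out in turn, 2 without SAH mouse 4 and 3 without Naive mouse 8, Naive mouse 9 or Sham mouse 5, and Cd72, Clec12a and Milr1 had at most 15 counts in any mouse. Fcgr2b, the inhibitory Fc receptor, held 5.56, 3.83, 6.42 and 6.04 CPM in SAH and 2.06 to 3.02 CPM in control, and was higher by 1.17 (edgeR adjusted p = 0.0027), with 1.02 (adjusted p = 0.0067) without the 3 libraries high in choroid plexus markers. Pecam1, a receptor of endothelium and leukocytes, was higher by 0.70 (adjusted p = 0.0331), with 28.4 and 28.9 CPM in SAH mice 3 and 4, 14.2 and 19.3 in SAH mice 1 and 2, and 12.5 to 15.3 in control. SAH mouse 1 lay inside the control range, and without those 3 libraries, or without SAH mouse 4 alone, Pecam1 did not pass (0.25 and 0.56). Clec4a2 had 0.34 (adjusted p = 0.520). Pirb, below the filter, held 0.53, 0.29, 0.71 and 1.16 CPM in SAH and 0.075 to 0.40 CPM in control, and passed with no filter (log2 fold change 1.83, edgeR adjusted p = 0.0517).

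Of 16 activating partners and relatives 5 had enough counts, and 3 of the 5 were higher: Fcgr3 by 0.78 (edgeR adjusted p = 0.0096), Fcgr1 by 0.67 (adjusted p = 0.086) and Trem2, the lipid receptor of microglia, by 0.35 (adjusted p = 0.0534), with a list median of 0.67. Trem2 passed in 4 and Fcgr1 in 3 of the 10 fits that left out a mouse. With no filter 4 of 14 passed (Fcgr1, Fcgr3, Fcgr4 and Trem2), beside 3.73% of all genes, and the median was 0.78. Fcgr4 had at most 22 counts in any mouse. Siglech, a microglial Siglec that signals through Tyrobp, had 0.077 (adjusted p = 0.627). The nearest activating kin of the members left few counts: Cd300lb was at or below 0.10 CPM and Cd300ld at or below 0.29 CPM in every mouse.

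Of 10 ITAM adaptors and kinases, which carry or read the activating motif, 8 had enough counts and 1 passed, the adaptor Tyrobp (0.33, edgeR adjusted p = 0.0716). Fcer1g had 0.28 (adjusted p = 0.248), Syk 0.22 (adjusted p = 0.335) and Lyn, a kinase that phosphorylates ITIMs, 0.16 (adjusted p = 0.469). The list median was 0.19. Tyrobp passed in 4 of the 10 fits that left out a mouse.

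Phosphatases and adaptors that act beside Ptpn6 had a median of 0.060, and 1 of 7 passed. Inpp5d, the lipid phosphatase SHIP-1 of blood cells and microglia, was higher by 0.38 (edgeR adjusted p = 0.0526), with 13.6 to 19.5 CPM in SAH and 11.9 to 14.3 CPM in control. SAH mouse 2 lay below the highest control mouse, and Inpp5d passed in 4 of the 10 fits that left out a mouse. Ptpn11, the broadly made phosphatase SHP-2, had 0.073 (adjusted p = 0.494).

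Protein ligands that passed all belonged to Lair1. The collagens Col3a1 (1.38, edgeR adjusted p = 0.0093), Col1a2 (1.21, adjusted p = 0.0045) and Col1a1 (0.91, adjusted p = 0.0217) and the complement component C1qa (0.52, adjusted p = 0.0117) were higher, while Col4a1, a collagen of vessel walls, had 0.27 (adjusted p = 0.362). C1qa held 57.1, 47.9, 72.1 and 68.6 CPM in SAH and 38.9 to 48.1 CPM in control, and Col1a1 15.7, 11.8, 5.86 and 11.5 CPM in SAH and 5.14 to 6.76 CPM in control. SAH mouse 3 had the highest C1qa and the lowest Col1a1 of the SAH mice. The neuronal ligands did not pass: Cd47 had 0.061 (adjusted p = 0.517, 95% interval -0.036 to 0.16), Cd200 -0.092 (adjusted p = 0.504, -0.23 to 0.050) and Npdc1, a ligand of Pilra, -0.013 (adjusted p = 0.894, -0.10 to 0.075). Of the 9 ligands with enough counts 4 passed, with a median of 0.27.

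Genes that make, attach or remove sialic acids, the ligands of the Siglecs, showed no call: 0 of 17 passed in edgeR and 0 of 17 had an unadjusted p under 0.05, with a median of -0.052. St6gal1, which makes the linkage that Cd22 binds, had -0.052 (95% interval -0.20 to 0.098), Cmas, which activates sialic acid, 0.0035 (-0.080 to 0.087), and St3gal5, which starts the brain gangliosides, 0.059 (-0.061 to 0.18). Cmah, which makes the sialic acid form that mouse Cd22 prefers, was below the filter at 0.25 to 0.40 CPM in SAH and 0.083 to 0.38 CPM in control.

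**Figure D4:**
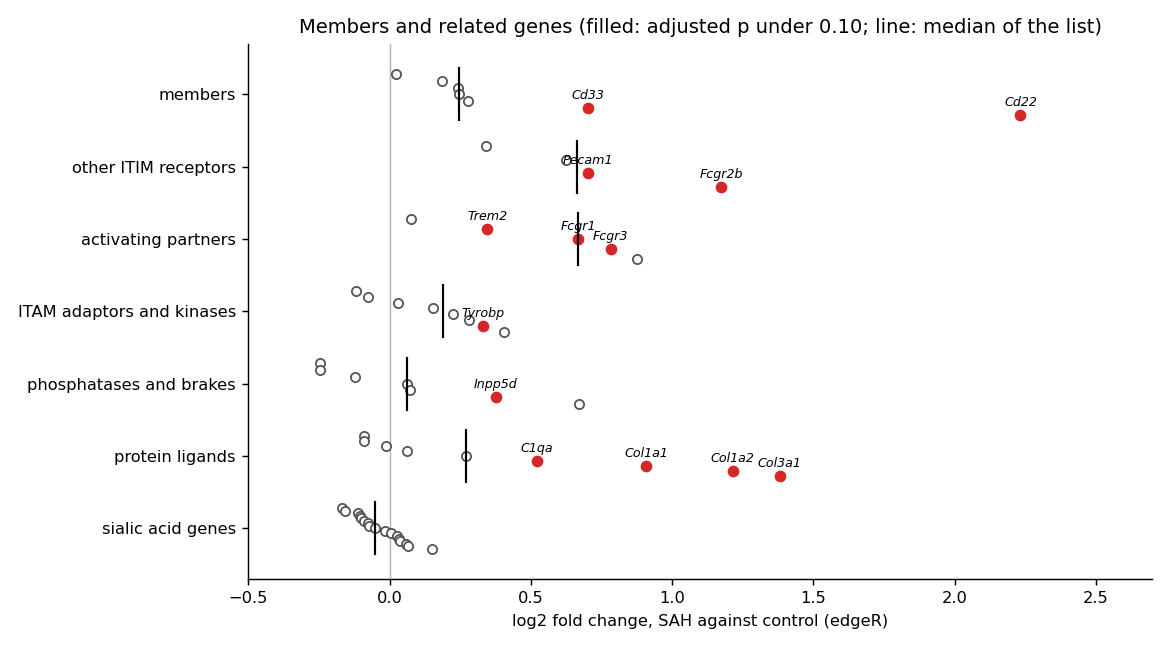
Log2 fold change in SAH against control from edgeR (horizontal axis) of the tested members and of the tested genes of 6 related lists (rows). Each point is a gene, filled and named where the adjusted p was under 0.10, and the black line is the median of the list. The filled points all lie above 0, and the sialic acid genes stay between -0.17 and 0.15 with none filled.

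Against Sham alone 2 of the related genes passed (Fcgr2b and Col1a2), beside 0.72% of all 15134 genes tested. Against Naive alone 8 passed, beside 2.99%. Of the 8, Fcgr4 was below the filter in the pooled comparison. In Sham against Naive 0 passed in edgeR or DESeq2, and 0 had an unadjusted p under 0.05.

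The members varied together only in part. Over the 10 mice after each group's mean was removed, 19 of the 21 pairs of tested members had a positive correlation of log2 CPM, with a median of 0.39 and a range from -0.24 (Cd33 and Ptpn6) to 0.76 (Siglece and Sirpa), and Cd22 with Cd33 gave 0.63. All pairs share the same libraries and their depth, and Cd22 is sparse. The genes whose level ran most like the mean standardised level of the 7 tested members over the 10 mice included Slc18b1 (Pearson r 0.94), Herc6 (0.94), Igbp1 (0.91) and Apobec1 (0.91). Within groups they were Cstf3 (0.95), Il15 (0.95), Slc18b1 (0.92), Kcnk3 (0.92) and Igbp1 (0.91). These are the highest of 14986 candidates over 10 points, and are given as a description.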

How the data were processed

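The deposited values were raw counts of read pairs per gene name in 1 library per mouse. Per the labels and methods, the authors extracted total RNA (RNA integrity number above 9), made stranded libraries after removal of ribosomal RNA, aligned read pairs to mm9 with STAR, and counted exons with featureCounts 1.6.2, reverse-stranded, leaving out reads that aligned to several places or genes. Reads shared by near-identical relatives (Siglec, Cd300, Pilra and Sirpa families) are therefore missing from the counts. Of the members' 101 exons in the files, 93 (92.1%) had both ends in the mm9 reference annotation.

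From these counts, edgeR 4.0.16 in R 4.3.3 (TMM scaling, filterByExpr, quasi-likelihood test, Benjamini-Hochberg over all tested genes, threshold 0.10 as in the study) was fitted to all 10 mice, with Sham and Naive pooled as control or as 3 groups that share 1 estimate of the spread. The standard error is the absolute log2 fold change divided by the square root of F. CPM is counts per 1000000 after TMM scaling. Replicates were separate animals. Alternatives were DESeq2 1.42.0, no filter, a stricter filter, a robust fit, 2-group fits, a threshold of 0.05, and each mouse left out. Leaving out the 3 libraries high in choroid plexus markers, and joining the absence of a filter with each omission, were added after seeing the data.

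The members and all lists were chosen with earlier results of these data known. Named genes are all members, a set part of the related lists, markers, and the 5 genes most like the members. Pilrb2, Fcgr1, Fcgr3, Fcgr4, Cd72, Clec12a, Milr1, Col1a2 and Col4a1 stand outside this rule and were picked with values known. The inhibitory motif was not searched in proteins, which were not used here. The scripts were tested on simulated data. Some genes of the lists are not reported here by name.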

Additional observations from a re-analysis of the deposited data

Results flagged for a closer look

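Of 20 groups of member values looked at (10 genes, in SAH mice and in control mice), 1 had a mouse far from the others: Cd300lf in SAH, where mouse 3 stood at 1.21 CPM and the other 3 SAH mice at 0.037 to 0.120 CPM. Its gap to the next mouse was 0.929 of the range of the group. By its construction the rule flags about 1 in 20 such groups by chance alone, a rate that was not measured here.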

How the results depend on the processing

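In SAH against control, 2 members passed with all mice and the low-count filter, 0 to 3 with 1 mouse left out (3 without SAH mouse 2, 0 without SAH mouse 4, and 1 without Naive mouse 8, Sham mouse 6 or Sham mouse 7), 1 when at least 10 counts in every mouse were asked for, which removed Cd22, and 0 without the 3 libraries high in choroid plexus markers, with or without the low-count filter. With no low-count filter and 1 mouse left out, 2 to 4 members passed. Against Sham 0 members passed, then 2 by DESeq2 and 0 to 1 with 1 mouse left out (Cd33 without SAH mouse 2). Against Naive 0 passed, then 2 by DESeq2, 1 with no low-count filter and 0 to 2 with 1 mouse left out (Cd22 and Cd33 without SAH mouse 2, Cd33 without SAH mouse 1, Cd22 without Sham mouse 7). In Sham against Naive 0 members and 0 related genes passed in every fit with 1 mouse left out.

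Of the related genes, 11 passed in SAH against control, 6 without the 3 libraries, 7 at an adjusted p under 0.05, 6 to 14 with 1 mouse left out (6 without SAH mouse 4), and 7 to 17 when no low-count filter was joined to that. Against Sham 2 passed, then 8 by DESeq2, 5 with no low-count filter, 1 in the robust fit, 0 with only the mice of the 2 groups, 4 without the 3 libraries, 1 at an adjusted p under 0.05 and 0 to 5 with 1 mouse left out (0 without SAH mouse 4 or any Sham mouse). Against Naive 8 passed, then 5 with only the mice of the 2 groups, 5 at an adjusted p under 0.05, and 2 to 13 with 1 mouse left out (2 without Naive mouse 8 or 9, 13 without SAH mouse 2). The causes were not tested.

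Over all genes, the 701 calls in SAH against control became 330 without the 3 libraries, 369 at 0.05 and 308 to 1093 with 1 mouse left out. The 109 against Sham became 302 by DESeq2, 182 with no low-count filter, 12 with only the 2 groups, 49 at 0.05 and 6 to 215 with 1 mouse left out. The 453 against Naive became 744 by DESeq2, 282 with only the 2 groups, 260 at 0.05 and 109 to 683 with 1 mouse left out. Among members and related genes no called value changed sign. Scaling moved the median of all genes by at most 0.011 on the log2 scale. Members at under 30 counts in every mouse (Cd22, Siglece, Cd300lf, Pilra and Cd200r1) are limited by depth. No paired analysis was possible because each animal number occurs in 1 group only.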
